A study of Mus musculus with 12 samples.

Results

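The RNA described here came from unirradiated primary tumours of NR-S1, a mouse squamous cell carcinoma that spreads to the lung. It lay in 1 channel of each of 10 two-colour arrays, out of 12 arrays in the series, with 5 channels in Cy5 and 5 in Cy3. Those channels were chosen by the dye that the labels give for this RNA. The study used the tumour in the hind leg of male C3H/HeMsNrs mice, in a design that compares carbon ions and gamma rays as treatments of the primary with the lung metastases that follow. The unirradiated primary was taken 1 week after the tumour had reached a diameter of 7.5 mm. Laser microdissection isolated the tumour cells, and the RNA was amplified linearly before labelling. The other 5 RNAs on these arrays shared the strain, sex and tumour. They were a primary taken 1 week after 8 Gy of gamma rays, a primary taken 1 week after 5 Gy of carbon ions, and lung metastases collected at 2 weeks in mice whose primary got no treatment, gamma rays or carbon ions. Every one of these 5 RNAs was paired with the unirradiated primary on 2 arrays of opposite dye. The labels name the tumour material as clone 1 throughout and do not say how many animals were pooled, and the series text spells the strain C3H/HeNrs. Primaries and metastases came from different mice.

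Squamous cell carcinomas arise from stratified epithelia. The basal layer of such an epithelium is marked by keratins 5 and 14, the transcription factor p63 and the integrins that anchor cells to the basement membrane, while cells that leave this layer switch to keratins 1 and 10 and build the cornified envelope. A microarray probe reports how much labelled RNA binds to it, so its signal rises with the abundance of its transcript but also depends on the probe's own sequence. A level below therefore places a gene in a band of signal, and no gene is called more abundant than another.

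The level of a gene is the log2 of the processed signal, averaged over the 10 channels and taken from the gene's brightest probe. A gene was counted as present in a channel where the scanner software had marked over 50% of the spots of any of its probes as well above background. The 10 channels carry the same label and were treated as repeats of 1 RNA, so each SD (n = 10 channels) is taken as technical and no p-value was computed. Of 27670 genes or other features on the array, 14358 (51.9%) were well above background on all 10 channels, 3784 (13.7%) on 1 to 9 channels and 9528 (34.4%) on none. Among the 19505 features with a gene name the shares were 64.3% (12535) for all 10 channels and 23.4% (4566) for none. With a less strict flag of the same software (positive and significant against background), the genes on no channel fell to 3250. Of the 3784 intermediate cases, 47 missed a channel only because a spot had been flagged.

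Levels of the 14358 genes ran from 4.73 to 17.51 with a median of 10.15, which corresponds to a signal of 1138. The lower quartile was 7.97 and the upper quartile 12.03. The high class, the top 5% of these genes, began at 14.53, a signal of 23663, and held 718 genes. The genes on no channel had a median level of 2.07, and 77.4% of their spots carried a surrogate value that the software sets where a signal is too weak. The distribution was therefore split into a floor near 2 and a broad band above 5, as the histogram of levels shows.

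**Figure D1:**
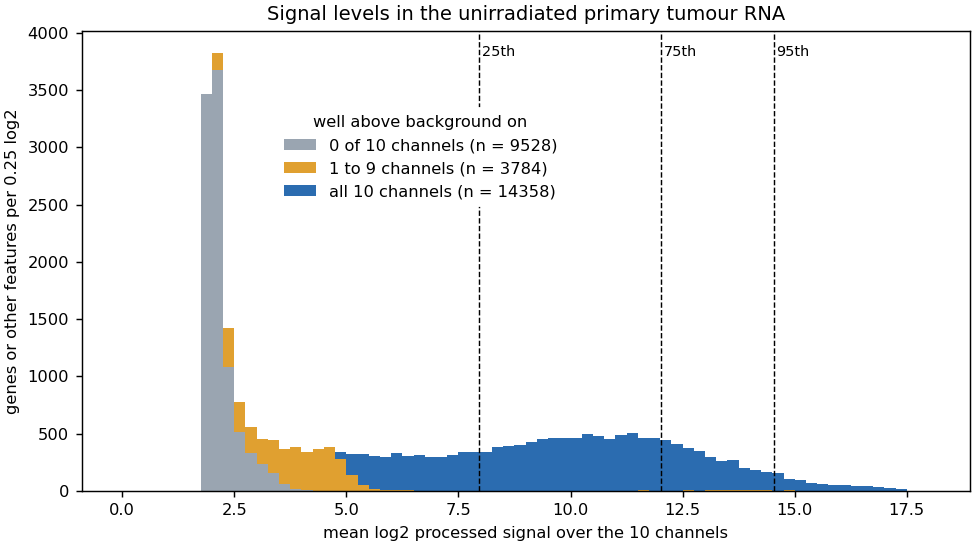
Stacked histogram of the mean log2 processed signal of 27670 genes or other features in bins of 0.25, coloured by the number of the 10 channels on which they were well above background, with dashed lines at the 25th, 75th and 95th percentile of the 14358 genes on all 10 channels. The 9528 genes on no channel pile up around a median of 2.07, and the 14358 spread around a median of 10.15.

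The median SD of the 14358 genes was 0.30, and 0.09 once each channel's overall offset had been removed. The median levels of the 3 slides were 10.14, 9.98 and 10.52, and channels of 1 slide also differed in overall level. Levels in any pair of channels correlated with r between 0.995 and 0.999 across genes, which are not independent replicates. For a small set of genes, however, the level in the primary channel moved with the RNA that shared the array. These genes are described after the lineage markers, with values for the 6 arrays shared with metastases and the 4 shared with irradiated primaries.

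To show regulatory sequence at both ends of the range, 4 promoters are printed, 1 of a ribosomal gene, 1 of a basal keratin and 2 of genes on no channel. Each is the 250 bases before the gene's first listed RefSeq transcription start (mouse build GRCm38.p6). Any other start of a gene was not used, here or in the class medians below. Bases run 5′ to 3′ in the direction of the gene, with every CG dinucleotide in capitals. Rps18 lies on the minus strand (chr17:33955666-33955915), Krt5 on the minus strand (chr15:101712906-101713155), Alb on the plus strand (chr5:90460620-90460869) and Cdkn2a on the minus strand (chr4:89294620-89294869).
Rps18: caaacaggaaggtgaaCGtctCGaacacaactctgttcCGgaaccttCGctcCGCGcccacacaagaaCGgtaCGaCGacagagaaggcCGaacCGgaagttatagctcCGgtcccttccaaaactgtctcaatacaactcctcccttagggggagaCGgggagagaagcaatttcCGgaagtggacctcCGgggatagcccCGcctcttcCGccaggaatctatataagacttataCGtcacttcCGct
Krt5: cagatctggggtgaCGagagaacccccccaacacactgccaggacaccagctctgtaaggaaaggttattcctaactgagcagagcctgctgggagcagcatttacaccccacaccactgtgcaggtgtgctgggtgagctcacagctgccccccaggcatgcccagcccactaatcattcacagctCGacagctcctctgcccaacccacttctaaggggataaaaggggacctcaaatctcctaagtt
Alb: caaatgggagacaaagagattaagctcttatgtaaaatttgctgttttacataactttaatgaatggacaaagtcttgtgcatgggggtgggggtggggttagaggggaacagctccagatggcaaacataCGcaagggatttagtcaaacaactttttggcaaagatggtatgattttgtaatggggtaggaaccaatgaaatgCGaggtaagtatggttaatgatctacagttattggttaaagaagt
Cdkn2a: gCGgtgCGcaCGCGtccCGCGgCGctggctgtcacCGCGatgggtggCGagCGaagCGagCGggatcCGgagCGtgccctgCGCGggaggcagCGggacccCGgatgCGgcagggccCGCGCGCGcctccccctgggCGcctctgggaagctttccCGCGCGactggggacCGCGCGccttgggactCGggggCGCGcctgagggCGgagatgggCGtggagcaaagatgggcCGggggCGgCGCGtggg
Rps18, in the high class with a level of 17.43, had 19 CG dinucleotides in this window and a ratio of observed to expected CG of 1.04. Krt5, also high at 17.34, had only 2 and a ratio of 0.105. Alb, which encodes the liver's serum albumin and was on no channel, had 2 as well, while Cdkn2a, also on no channel, had 40 and a ratio of 1.08.

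Single promoters thus varied within each class, and the classes differed in their medians. Over the protein-coding genes on all 10 channels, 9843 of 12288 had a promoter in the table, and their median was 16 CG dinucleotides. The 484 high genes with a promoter (of 593) also had a median of 16. The 3171 genes on no channel (of 3924) had a median of 3, and 46.7% of them had 2 or fewer, against 6.54% of the genes on all channels and 29.6% of all 27025 genes in the table. The motif TATAAA, searched on both strands of the same window, was in 21.4% of the promoters of genes on no channel, 7.09% of those on all channels, 9.09% of those in the high class and 12.97% of all. Unlike the classes, the 27025 genes were not limited to protein-coding genes or to genes on the array. These shares describe the windows and were not tested.

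The 30 named genes with the highest levels ran from 17.04 to 17.49. Of these, 17 encode ribosomal proteins and carry Rpl, Rplp or Rps names. Fau, which encodes a ribosomal protein fused to a ubiquitin-like sequence, was at 17.40. The group also held 3 H2A histones (H2ac1, H2ac20 and H2aj) and 8 genes of other kinds. Some H2A genes are close copies, so their probes may share signal, which was not tested. H2aj had probes at 17.04 and 9.785. The 8 included S100a6, a small calcium-binding protein, at 17.49 ± 0.35 (SD, n = 10 channels), and Aldoa, the glycolytic enzyme aldolase A, at 17.43 ± 0.39. Lgals1, which encodes the sugar-binding protein galectin-1, was at 17.12 ± 0.47. The keratin genes Krt14 and Krt5 completed the group's epithelial members.

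For 3 of the 8, another probe of the same gene read far lower. Ptprz1, a receptor-type tyrosine phosphatase, had probes at 17.10, 12.08, 9.21 and 2.43, Pigt, a subunit of the enzyme that attaches GPI anchors, at 17.33 and 7.29, and Lrrc58 at 17.11, 11.48, 7.08 and 6.78. Such spans were common. Of the 353 genes listed or named here that had several probes, 225 had probes more than 2 log2 units apart, with a median span of 3.25.

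The 10 named genes nearest the middle of the range, at a level of 10.15, were Acsl3, Ypel5, Nmt2, Ints4, Zfp36, Taf1c, Sema5a, Smad3, Cbwd1 and Thoc2. Smad3, a signal carrier below the TGF-beta receptors, ran from 9.75 through a median of 10.16 to 10.58 over the channels. Zfp36 encodes a protein that promotes decay of cytokine mRNAs, Nmt2 adds myristate to proteins, and Thoc2 is part of a complex that exports mRNA. The SD of these 10 genes lay between 0.25 and 0.39.

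**Figure D2:**
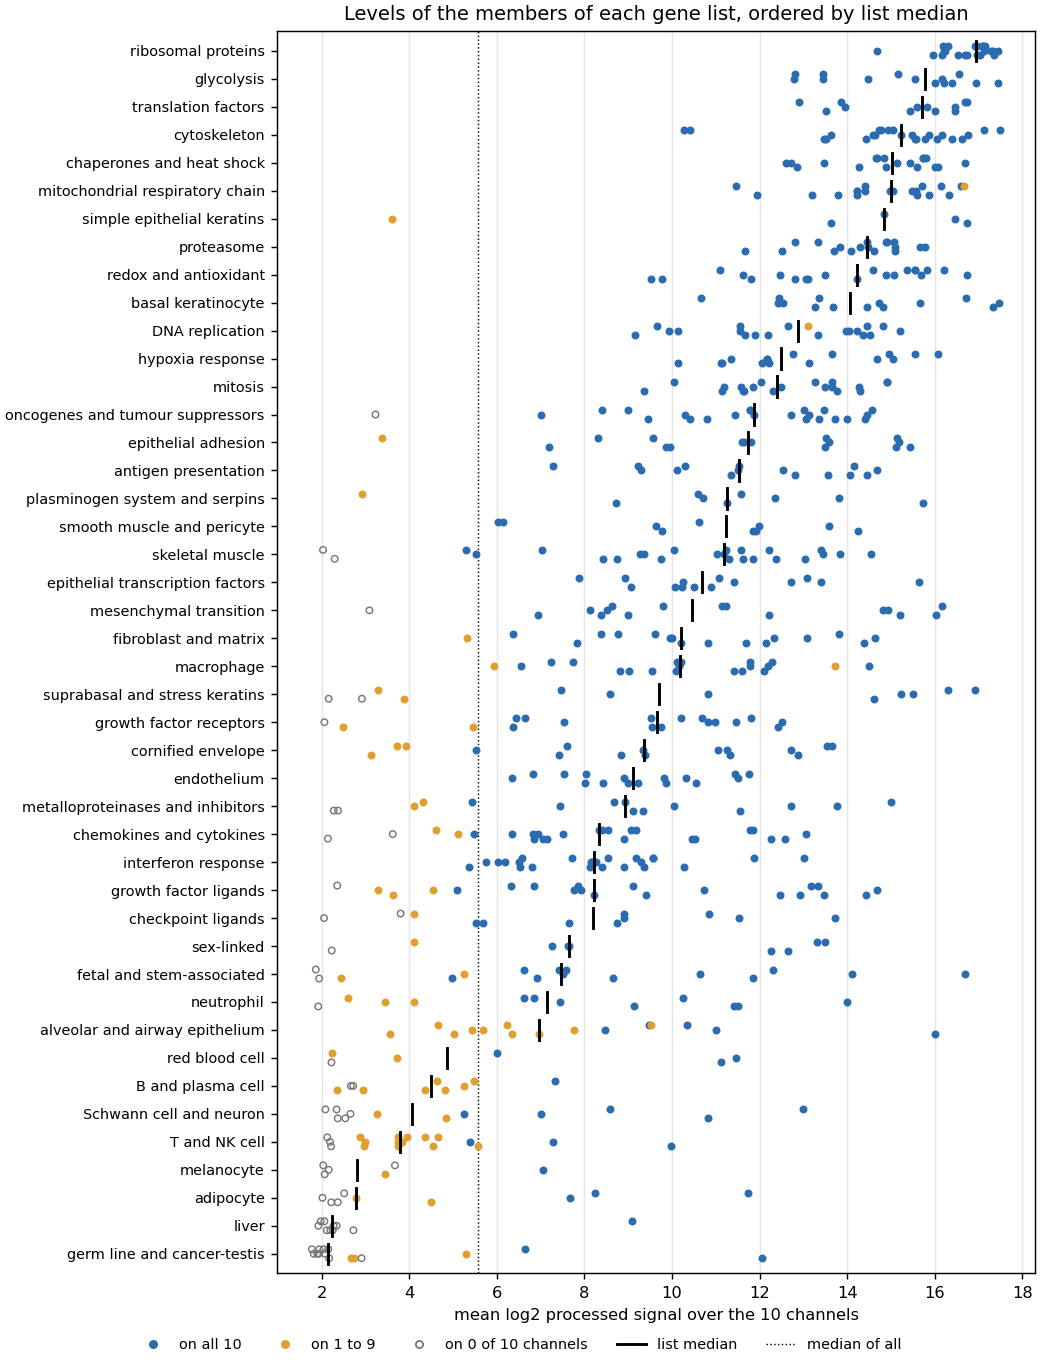
Mean log2 processed signal of the members of 44 gene lists, 1 point per gene, coloured by the number of primary channels on which it was well above background, with a bar at each list's median and a dotted line at the median of all features (5.56). Ribosomal proteins sit highest at a median of 16.94, and the liver and germ line lists lie near the floor at 2.22 and 2.15.

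All 14 markers of basal keratinocytes were on all 10 channels, against 64.3% of named genes, and 6 of them were in the high class, which held 3.07% of named genes. Their median level was 14.07. For the list counts below, the shares to compare are the same 64.3% and, for genes on no channel, 23.4%. Krt14, the type I keratin of the basal layer, ran from 16.74 through a median of 17.39 to 18.05. Krt5, its type II partner, ran from 16.80 through 17.32 to 17.88, so neither came near the floor in any channel. Itgb4, the integrin subunit of hemidesmosomes, was at 16.70 ± 0.36, and Perp, a desmosome-associated membrane protein, at 15.67 ± 0.29. Trp63, which encodes the transcription factor p63, was at 13.68 ± 0.30, with its 2 other probes at 9.41 and 5.49. The lowest member was Dsg3, a desmosomal cadherin, at 10.66 ± 0.32.

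Keratins outside the basal layer fell into separate bands. The keratins of activated and hyperproliferative epithelium were high, with Krt17 at 16.93 ± 0.41, Krt6a at 16.29 ± 0.40 and Krt16 at 15.50 ± 0.46. Krt6a and Krt6b are close copies, so their probes may share signal. Krt10, the type I keratin of the layer above, was at 8.58 ± 0.27, inside the intermediate class. Its partner Krt1 was at 3.88 ± 0.66 and well above background on 4 channels only, Krt2 on 1, and Krt75 and Krt4 on none. Krt13, the partner of Krt4 in internal stratified epithelia, was in the high class at 15.23 ± 0.42. The simple epithelial pair Krt8 and Krt18, typical of glands and single-layered epithelia, was also high. Krt8 ran from 16.02 through 16.75 to 17.47 and Krt18 from 15.73 through 16.43 to 17.25, while Krt20, a keratin of the gut lining, was on 1 channel.

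Of 16 cornified envelope genes on the array, 13 (81.3%) were on all channels, and none was in the high class. Their median level was 9.36. Evpl, which encodes the scaffold protein envoplakin, was at 13.66 ± 0.31 and Tgm1, the transglutaminase that cross-links the envelope, at 12.71 ± 0.32. Ivl, which encodes involucrin, was at 8.84 ± 0.27 and Lor, which encodes loricrin, at 9.34 ± 0.28. Flg, the gene of filaggrin, was on 2 channels at 3.73 ± 0.76, and Sprr3 on 1.

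Genes of epithelial adhesion and identity were detected almost throughout. On all 10 channels were 15 of 16 adhesion genes and 14 of 14 epithelial transcription factors. Cdh1, the gene of E-cadherin, ran from 13.03 through 13.59 to 13.93 and Epcam from 13.11 through 13.65 to 14.09. The tight junction gene Ocln was on 1 channel. Klf4, a factor of epithelial differentiation, was high at 15.65 ± 0.40, and Sox2, a transcription factor of stratified epithelial progenitors, was at 10.88 ± 0.30.

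Genes linked to a mesenchymal state were present beside these. Of 16, 15 were on all channels and 5 were high. Spp1, which encodes the secreted protein osteopontin, was at 16.16 ± 0.37 and S100a4 at 16.03 ± 0.41. Vim, the intermediate filament gene of mesenchymal cells, ran from 14.79 through 15.26 to 15.57, although its second probe was on no channel at 2.18. Snai2, a repressor of E-cadherin, was at 14.94 ± 0.31. Snai1, its relative, was at 6.93 ± 0.28, and Cdh2, the gene of N-cadherin, was on no channel at 3.09 ± 0.60.

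The machinery of growth was among the highest lists. All 22 ribosomal protein genes were high, with levels from 14.68 to 17.43. All 14 glycolysis genes were on all channels with a median of 15.78, led by Aldoa and by Ldha, the lactate dehydrogenase A gene, at 16.93 ± 0.35. Slc2a1, the glucose transporter GLUT1, was at 16.01 ± 0.32. All 16 hypoxia response genes were present with a median of 12.49. Among them, Ndrg1 was at 16.08 ± 0.37, Vegfa, the endothelial growth factor, at 14.68 ± 0.36, and Car9, a carbonic anhydrase, at 10.14 ± 0.34.

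All 20 mitosis genes and 19 of 20 DNA replication genes were on all channels, with medians of 12.40 and 12.88. Cdc20, an activator of the anaphase-promoting complex, was at 14.92 ± 0.34, and Mki67, the proliferation marker Ki-67, at 14.30 ± 0.34. Mcm6, part of the replicative helicase, was at 15.21 ± 0.36. The remaining replication gene, the primase subunit Prim1, had a level of 13.12 and 1 flagged spot.

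Of 23 oncogenes and tumour suppressors, 22 were on all channels, with a median of 11.88. Myc was at 14.01 ± 0.32, Akt1 at 14.56 ± 0.32 and Hras at 13.72 ± 0.33. Trp53, the gene of p53, ran from 9.98 through 10.80 to 11.68. Its Cy5 and Cy3 channels did not overlap, with means of 10.33 and 11.27. The exception was Cdkn2a, which encodes the cell cycle inhibitors p16 and p19Arf. It read 3.83, 3.61, 3.62, 2.93, 3.04, 2.62, 3.31, 2.66, 3.59 and 3.09 on the 10 channels, so it was near the floor on every one. Cdkn2b, which encodes the related inhibitor p15, was well above background on all 10 channels at 9.003 ± 0.30. Cdkn2a had 1 probe here, and it was on no channel in the other 5 RNAs either, where its levels were between 2.13 and 3.55. The reason was not tested.

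Among growth factor receptors, 15 of 18 were on all channels (64.3% of named genes). Met, the receptor of hepatocyte growth factor, was at 12.50 ± 0.46 and Egfr at 12.43 ± 0.31, while Ret was on none. Among the ligands, 17 of 21 were on all channels, including Nrg1 at 13.46 ± 0.34, Hbegf at 13.17 ± 0.33 and Areg at 12.93 ± 0.35. Hgf, the ligand of Met, was on 2 channels at 3.29 ± 0.83, and Fgf2 on none. Pthlh, a hormone-like factor that some squamous carcinomas release, was at 13.33 ± 0.33.

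Of matrix-degrading enzymes and their inhibitors, 11 of 15 (73.3%) were on all channels, beside 64.3% of named genes. Timp1, an inhibitor, was high at 14.996 ± 0.33, and the membrane-bound enzyme Mmp14 was at 13.77 ± 0.37. Mmp7 and Mmp1a were on no channel. Of genes associated with fetal or stem cells, 12 of 16 (75%) were on all channels, beside the same 64.3%. The chromatin protein gene Hmga1 was high at 16.69 ± 0.38 and its relative Hmga2 was at 11.85 ± 0.30, whereas Lin28a and Prom1 were on none.

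The labels describe dissected tumour cells, and markers of other cell types were present as well. In RNA from a dissected area, fewer cells of a type and less RNA per cell cannot be told apart. Skeletal muscle genes, in a tumour grown in the leg, were on all channels for 23 of 25, with a median of 11.18. Tpm2 was at 14.53 ± 0.35, and Myh8, the perinatal myosin heavy chain, ran from 13.37 through 13.83 to 14.23, with its 3 other probes at 2.73, 2.21 and 2.12. Acta1, the skeletal actin, was at 12.38 ± 0.29, and the muscle regulators Myog and Myod1 were at 8.74 ± 0.24 and 5.52 ± 0.33. Myf5 and Pax7, which mark muscle precursor cells, were on no channel.

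Vessel and connective tissue genes were also detected. All 16 endothelial genes were on all channels with a median of 9.11, none of them above the upper quartile. Cdh5, the cadherin of endothelial cells, was at 9.81 ± 0.32 and Pecam1 at 8.02 ± 0.31. Of 17 fibroblast and matrix genes, 16 were on all channels, with the collagen genes Col1a2 at 14.64 ± 0.35 and Col1a1 at 14.39 ± 0.31. All 10 smooth muscle and pericyte genes were on all channels, with Acta2 at 14.26 ± 0.34. Other probes of these genes read lower. Those of Pecam1 and Col1a2 were on no channel, at 2.01 and 1.88. Col1a1 also had probes at 10.73 and 5.475, and Acta2 at 13.53, 9.375, 4.81 and 2.08.

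Macrophage genes were on all channels for 18 of 20, with a median of 10.18. C1qa, part of complement C1q, was at 11.79 ± 0.34 and Csf1r, the receptor of macrophage colony-stimulating factor, at 10.21 ± 0.30. The 2 others were Ctss, which had flagged spots on 2 channels and a level of 13.71, and Marco, on 9 channels. Of T and NK cell genes, 3 of 18 (16.7%) were on all channels (11 with the less strict flag), and Klrk1, Klrb1c and Ncr1 were on none. Cd8b1 stood out at 9.98 ± 0.30, but its second probe was at 4.23 and its partner chain Cd8a was at 4.66 on 5 channels. Of B and plasma cell genes, 1 of 10 was on all channels, Ighm (5 with the less strict flag). The haemoglobin genes Hba-a1 and Hbb-bt, which mark red blood cells, were at 11.13 ± 0.34 and 11.47 ± 0.31.

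The liver, melanocyte and germ line lists had medians near the floor, at 2.22, 2.80 and 2.15. Of 10 liver genes, 9 were on no channel (23.4% of named genes), Alb among them at 2.20 ± 0.49. The exception was Ambp, which encodes a plasma protein precursor, at 9.09 ± 0.28. Of 6 melanocyte genes, 4 were on none and Mlana was on all 10 at 7.05 ± 0.27. Of 15 germ line and cancer-testis genes, 10 were on none. Rhox5, a homeobox gene of the X chromosome that is normally active in testis, ovary and placenta, ran from 11.56 through 12.08 to 12.59 and was on all 10 channels. The Schwann cell and neuron list held 5 of 12 on all channels, with the myelin gene Mbp at 13.001 ± 0.33. Its other probes read 7.71 and 5.82.

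The host mice were male, per the labels. Xist, the RNA that coats the inactive X chromosome and is normally transcribed in female cells, ran from 12.13 through 12.68 to 13.13, and its 3 other probes, at 11.24, 9.20 and 7.05, were also on all 10 channels. Of the 4 Y-linked genes, Eif2s3y was on all channels at 7.62 ± 0.31 and Ddx3y at 7.27 ± 0.27, Kdm5d was on 4 channels and Uty on none. The other Ddx3y probe was on no channel at 2.37. The X-linked counterparts Eif2s3x and Ddx3x were at 13.50 ± 0.33 and 13.30 ± 0.30. The labels do not give the sex of the animal in which the tumour arose.

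Interferon-stimulated genes were present but dim. All 24 were on all channels with a median of 8.22, 9 of them in the low class and none high. Irf1, a transcription factor of the pathway, was at 13.02 ± 0.31 and Mx1, an antiviral GTPase, at 5.37 ± 0.33. All 15 genes of antigen presentation were on all channels with a median of 11.53, and H2-K1, a class I chain, was at 14.67 ± 0.34. This list was read only beside RNAs with higher list medians, from 13.66 to 15.82. In the other RNAs the interferon list had medians of 10.85 in the gamma primary, 12.47 in the carbon primary and 11.78, 10.57 and 10.68 in the metastases after no irradiation, gamma rays and carbon ions. With 1 RNA a condition, these differences have no replicate check. Some interferon-induced genes also moved in the primary channel with the array's other RNA. Gbp4, an interferon-induced GTPase outside the list, read 9.04 and 8.75 beside the carbon primary at 12.06 and 12.17, and 4.92 to 5.51 beside the metastases after gamma rays and carbon ions at 7.59 to 7.64. Iigp1, a GTPase in the list, ran from 5.35 to 7.46 in the primary channel beside other RNAs at 11.04 to 14.99. All 5 other RNAs had a higher list median than the primary, so no array gave the list's primary level beside a dimmer RNA, and the part of the other RNA in that level was not tested.

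Genes whose primary signal moved with the array's other RNA are best seen in Sftpc, which encodes surfactant protein C of the lung's alveolar cells. Its primary level, Cy5 before Cy3, was 15.17 and 13.07 on the arrays shared with the metastasis of untreated mice, 14.27 and 11.96 with the metastasis after gamma rays, and 14.52 and 12.33 with the metastasis after carbon ions. On the arrays shared with irradiated primaries it was 3.58, 3.35, 3.04 and 3.90, and on none of these was it well above background. The 6 values and the 4 values did not overlap. On the metastasis arrays the other RNA read between 18.003 and 19.696, which is 4.53 to 6.04 above the primary on the same array. On the irradiated primary arrays it read between 1.91 and 2.74.

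Chil1, a chitinase-like secreted protein, showed the same order with less distance. Its primary level was between 9.63 and 10.43 on the 6 metastasis arrays, where the other RNA read 2.999 to 3.454 higher, and between 6.24 and 6.59 on the 4 others. It was well above background on all 10 channels, with an SD of 1.86, the largest of any named gene on all channels. Cxcl9, a chemokine induced by interferon gamma, did not separate metastasis from primary arrays. Its primary level was 9.13 and 8.79 on the arrays with the carbon primary, 8.46 and 8.21 with the metastasis of untreated mice, 7.13 and 6.58 with the gamma primary, and 5.15 to 5.54 with both other metastases. The other RNA stood in the same order, at 14.34 and 14.27, 13.53 and 13.50, 11.97 and 11.79, and 9.20 to 9.94. The gap between both channels of an array stayed within 3.97 and 5.49.

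**Figure D3:**
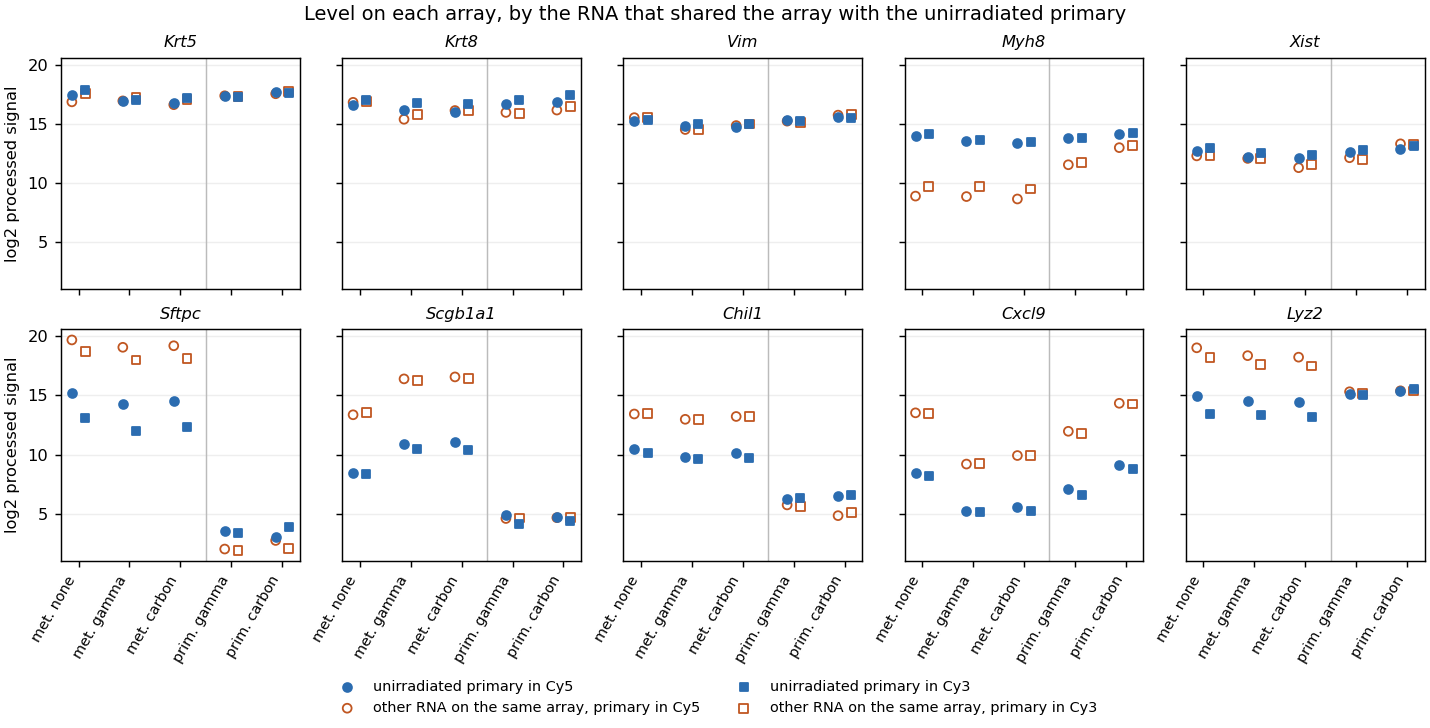
Log2 processed signal of 10 genes on each of the 10 arrays, with the unirradiated primary as filled points and the array's other RNA as open points, grouped along the x axis by that other RNA (met., metastasis; prim., primary; none, gamma or carbon, the treatment of the primary) and shaped by the primary's dye. Sftpc, Scgb1a1, Chil1 and Cxcl9 followed the other RNA. Krt5, Krt8, Vim and Xist kept their primary level beside other RNAs -1.111 to 0.453 log2 from it, and Myh8 beside dimmer ones. No array held them beside a much brighter RNA.

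Lyz2, the lysozyme gene of macrophages and alveolar cells, moved the other way. Its primary level was 13.17 to 14.95 on the metastasis arrays, where the other RNA read 17.49 to 19.03, and 15.02 to 15.51 on the others. Myh8, the muscle gene, stayed between 13.37 and 14.23 while the other RNA ran from 8.67 to 13.16. That RNA was dimmer than the primary on every array, so Myh8 was never seen beside a brighter one.

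After removal of each channel's offset, 239 of 19505 named genes (1.23%) were at least 1 log2 unit higher in the primary on the metastasis arrays than on the others, and 115 (0.59%) at least 1 lower. Over all features on at least 1 channel, 299 of 18142 were higher, and in 251 of these the metastases themselves read at least 1 above the irradiated primaries. Another 205 were at least 1 lower, and in 146 of these the metastases read at least 1 below the irradiated primaries. The share of higher genes grew with the difference between the other RNAs. It was 0.319% of 15065 genes where the other RNAs differed by less than 1 either way, 8.87% of 744 genes between 2 and 4, 53.9% of 154 genes between 4 and 6, and 90.8% of 76 genes above 6. Of the 299, 232 also differed by at least 1 within the slide that held both kinds of array. Among the 14358 genes on all 10 channels the gap was rare, with 24 higher and 5 lower. In the signals before dye normalization these counts were 22 and 4, and with another background correction and normalization (normexp, loess and Aquantile) 12 and 1. Chil1, measured on all 10 channels, had a gap of 3.87 in the processed signal, 4.001 before dye normalization and 2.997 with the other correction. The counts over all features include genes such as Sftpc that were not well above background on the 4 arrays, so the size of their gap is not measured. The cause was not tested.

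**Figure D4:**
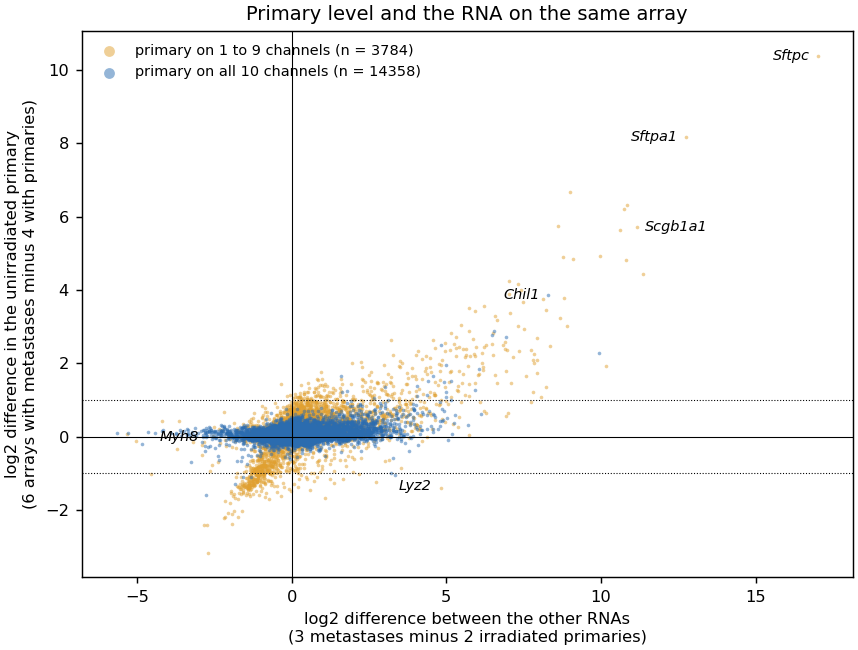
Each point is 1 of 18142 genes or other features on at least 1 primary channel, with the difference between the other RNAs (mean of 6 metastasis channels minus mean of 4 irradiated primary channels, log2) on the x axis and the difference in the unirradiated primary between the same arrays on the y axis, with dotted lines at 1 and -1. Genes on all 10 channels (blue) hug 0 except for 29 beyond the lines, and the share of points above 1 grows to the right, to 90.8% beyond 6. Genes not well above background on 1 set of arrays, such as Sftpc, are drawn at their measured signal, which is no measure of a level there.

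By this split of the arrays, the list with the most members at least 1 apart was that of alveolar and airway epithelium, with 10 of 15. The split does not show genes that, like Cxcl9, were high in some metastases and some irradiated primaries. On the 6 metastasis arrays 13 of its 15 members were on all channels (65.6% of named genes), with a median primary level of 8.36. On the 4 other arrays 5 of 15 were on all channels (64.7% of named genes), with a median of 3.86, and 8 were on none. The 5 were Aqp5, Lamp3, Pdpn, Abca3 and Cyp2f2. The brightest Lamp3 probe was at 10.998, but its other probes were on no channel, at 2.49, 2.40 and 1.79. Those of Abca3 read 9.47, 8.54, 2.68 and 2.07. Aqp5, a water channel also known from glands, was at 16.01 ± 0.36, with a difference of -0.18 between the metastasis arrays and the others. In the irradiated primaries themselves, 6 and 7 of 15 were on both channels, and in each metastasis 15 of 15.

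Other lists moved less. The B and plasma cell median was 4.99 on the metastasis arrays and 3.28 on the others, with 5 of 10 members at least 1 higher. Jchain, the joining chain of secreted antibodies, was well above background on all 6 metastasis arrays and on none of the 4 others. T and NK cell genes had medians of 3.85 and 3.76, with 5 of 18 at least 1 higher. The neutrophil medians were 7.30 and 7.16, with 2 of 12 genes at least 1 higher and 1, S100a9, at least 1 lower, at 13.45 and 14.79. In 5 further lists 1 member each differed by at least 1. These were Ocln among adhesion genes, the matrix gene Dpt, the macrophage receptor gene Marco and the germ cell gene Stra8, which read higher on the metastasis arrays, and Cxcl9, which read lower. Ocln and Stra8 were well above background on 1 channel each. No member of the lists for basal keratinocytes, simple keratins, ribosomal proteins, mitosis, skeletal muscle or endothelium differed by 1 either way.

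After the software's dye normalization, the Cy5 and Cy3 means of nearly all genes were less than 1 log2 unit apart. Without it, 2284 of the 14358 genes were at least 1 apart. With it, 2 (0.0139%) had a Cy5 mean at least 1 log2 unit above the Cy3 mean and 26 (0.181%) the reverse, and the Cy5 and Cy3 values did not overlap in 130 (0.905%). Mdfi, an inhibitor of muscle regulatory factors, had the largest gap toward Cy5, 1.62, with a Cy5 mean of 8.79 and a Cy3 mean of 7.17. Mdn1, a ribosome assembly factor, had the largest gap toward Cy3, -1.88. The linker histone gene H1f5 and the arginine methyltransferase gene Prmt1 were also brighter in Cy3, with gaps of -1.85 and -1.34.

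**Figure D5:**
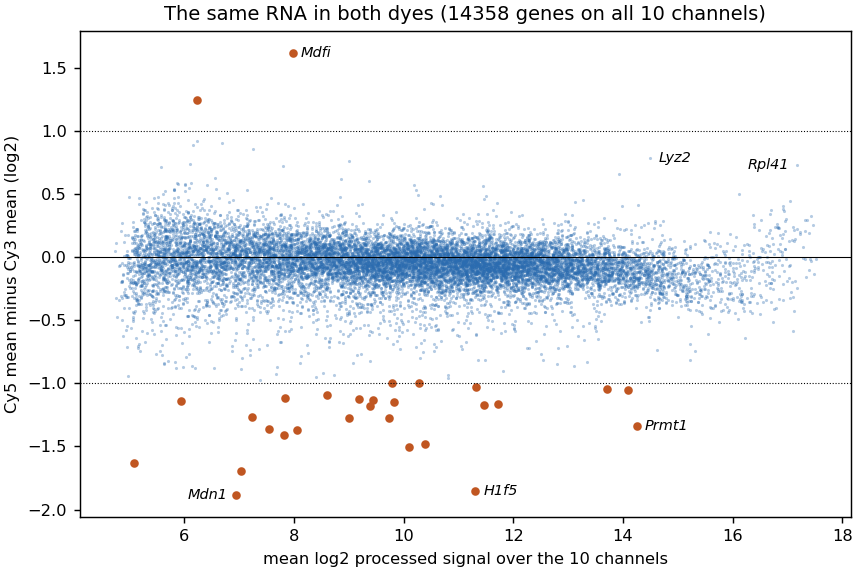
Cy5 mean minus Cy3 mean (5 channels each, log2) against the mean level for the 14358 genes on all 10 channels, with genes at least 1 apart in orange and dotted lines at 1 and -1. Most points lie near 0, 2 lie above the upper line and 26 below the lower one.

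Detection in the 5 other RNAs was compared on the same arrays. Both channels were well above background for 66.8% of named genes in the gamma primary, 66% in the carbon primary, and 71.5%, 73% and 69.4% in the metastases after no irradiation, gamma rays and carbon ions. In that order, these were 13039, 12881, 13951, 14241 and 13534 of 19505 genes. The unirradiated primary, on both channels of the same 2 arrays, had 12740, 12845, 13552, 13447 and 12865. The 64.3% given above asks for all 10 channels and is no match for these shares. Only 20 of the 12535 named genes on all 10 primary channels (0.16%) were on none of the 6 metastasis channels, and 4 with the less strict flag. The 15 with the highest primary level included the sarcomere genes Neb at 8.48 ± 0.29, Myot at 7.12 ± 0.21 and Mybpc1 at 5.99 ± 0.22, the muscle regulator Myf6 at 8.09 ± 0.25 and the calcium store gene Casq1 at 6.70 ± 0.30. Of the 20, 11 were also on neither channel of the gamma primary and 2 on neither channel of the carbon primary. The skeletal muscle list as a whole had medians of 8.07 and 9.95 in the gamma and carbon primaries and of 5.71, 5.42 and 5.32 in the metastases, beside 11.18 in the unirradiated primary.

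In the opposite direction, 41 of the 4566 named genes on no primary channel (0.898%) were on both channels of the gamma primary and 44 (0.964%) on both of the carbon primary. Cadps2, a regulator of vesicle release, was at 2.36 in the unirradiated primary and at 7.03 and 7.35 in the gamma and carbon primaries. Tnfsf10, which encodes the death ligand TRAIL, was at 2.63, 4.73 and 7.79. The metastases after no irradiation, gamma rays and carbon ions held 360 (7.88%), 491 (10.8%) and 283 (6.2%) of the 4566. Taken from the 4 channels that shared an array with an irradiated primary alone, the 5 counts were 109, 129, 750, 913 and 579, and with the less strict flag they were 7, 15, 85, 137 and 75. S100g, a calcium-binding protein of epithelia, was at 2.81 in the primary and at 12.04, 10.80 and 11.32 in the metastases after no irradiation, gamma rays and carbon ions, and Fabp1, a fatty acid-binding protein, at 2.38, 10.95, 9.59 and 8.94. Values of the unirradiated primary below about 3 are at the floor, so no fold was taken.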

How the data were processed

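RNA from laser-dissected tissue was amplified, labelled with Cy3 or Cy5 and hybridised to two-colour Agilent arrays (design 014868), per the labels and the file headers. The deposited values are scanner intensity values made with Feature Extraction 9.1.3.1 (protocol GE2-v5_91_0806). Per the file headers, the processed signal is corrected for background and spatial trend and balanced between dyes (linear plus LOWESS), and very dim spots carry a surrogate value. Dim genes therefore have no order among themselves. Other deposited columns hold flags of 0 or 1, used as given. No channel had a saturated spot, and primary channels had 2 to 49 flagged spots, which were left out.

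The log2 of the processed signal was computed here, averaged over spots of a probe and over channels. Each gene took its brightest probe, and classes were cut at the 25th, 75th and 95th percentile. Symbols came from the RefSeq table of GRCm38.p6, where 22951 of 41174 probes were found through an accession, 6659 through a current symbol and 3109 through a former one. Of 695 listed genes, 683 were on the array. Differences between arrays were taken after centring each channel. Promoters came from RefSeq. Python 3.11.15, numpy 2.4.6, pandas 2.3.3, R 4.3.3 and limma 3.58.1 were used, and the averaging and detection steps were tested on simulated data.

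The genes named are the 30 brightest, the 10 nearest the median, the leading, highest, lowest and absent members of each list, the extremes of dye gap and SD, and the extremes of the comparison with the other RNAs. Others were chosen after their values were seen. The genes and lists were chosen with earlier results of these data known. The labels do not say whether the 10 channels hold the same extract. Alternatives covered the detection flag, dye, slide, scaling, background correction, probe rule and each array left out. The deposited table of ratios was not used here. Some genes that the naming rule covers are not reported here.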

Additional observations from a re-analysis of the deposited data

Results flagged for a closer look

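The median of each of 44 gene lists was compared across the 10 primary channels, relative to that channel's offset, and 2 lists had a channel far from the others. Chance alone gives such a gap in about 1 in 20 groups. The basal keratinocyte median was 13.496 in the Cy5 channel of the array shared with the metastasis of untreated mice, against 14.005 to 14.156 in the other 9. Genes with a flagged spot were left out of a channel's median. This channel had 49 flagged spots, and the brightest probes of Itgb4 and Col17a1 were each on 9 channels. Krt5, Krt14 and Trp63 read 17.484, 17.795 and 13.861 there, beside means of 17.335, 17.469 and 13.676. The part of left-out genes in this median was not tested. The chemokine and cytokine median was 8.590 in the Cy5 channel of the array shared with the carbon primary, against 8.153 to 8.315 in the others.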

How the results depend on the processing

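No paired analysis was possible because the results come from no test between replicate samples and each condition is 1 RNA. The cause of the changes below was not tested unless the setting itself fixes it, as where fewer channels are required. With each array left out in turn, 14359 to 14500 genes were on all channels and 9577 to 9812 on none, 29 of the brightest 30 were kept and the genes 2-fold apart between dyes numbered 24 to 36, beside 28. With the less strict flag, genes on no channel fell to 3250, and the members on all channels were 11 for T and NK cells, 5 for B and plasma cells, 10 for alveolar and airway epithelium, 3 for melanocytes and 4 for germ line genes. In Cy5 alone they were 5 for T and NK cells and 2 for B and plasma cells, which was also 2 without slide 2 and 1 to 2 with an array left out. On the 6 metastasis arrays they were 3 for B and plasma cells and 13 for alveolar epithelium. The alveolar median minus that of all genes turned to -1.72 on the 4 other arrays, the 1 change of sign among lists. With normexp, loess and Aquantile, this distance moved by at least its SD over the 10 channels in 42 of 44 lists. It did so in 29 with the mean of all probes, 19 without dye normalization and 15 on the 4 arrays. After quantile normalization it did so in 2, and with 75th percentile scaling in 0. Genes on all primary and no metastasis channel fell to 4 with that flag. Genes on no primary channel but on both of another RNA, in the order gamma primary, carbon primary and the metastases after no irradiation, gamma rays and carbon ions, numbered 7, 15, 85, 137 and 75 with that flag, 108, 115, 594, 754 and 464 in Cy3 alone, 99, 112, 655, 812 and 476 without slide 1, and 109, 129, 750, 913 and 579 on the 4 arrays, a choice made after seeing the data, as were the 6 arrays. With 1 primary channel allowed, the gamma and carbon primaries had 71 and 79. Averaging all probes of a gene kept 19 of the brightest 30. Genes 2-fold apart between dyes numbered 52 after quantile normalization, 14 with normexp, loess and Aquantile, 2284 without dye normalization and 46 on the 4 arrays. The number of arrays and the signal over background limit the precision of dim genes.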
